A study of Homo sapiens with 9 samples.

Results

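The comparison set 3 libraries of A375 cells given Salvianolic acid B (SalB) at 200 µM for 48 h against 3 libraries of untreated A375 cells, all grown in DMEM with 10% fetal bovine serum. These 6 libraries were taken, by the column names of the deposited count table, from a series of 9, the other 3 being cells given 100 µM. A375 is an established human melanoma line with an activating BRAF mutation, so the data come from 1 line in culture without stroma or immune cells, and SalB is a phenolic acid from the root of Salvia miltiorrhiza. Messenger RNA was captured on poly-T beads from TRIzol-extracted RNA and sequenced in read pairs, and the series describes the libraries as biological replicates, with a single batch label. The reference was untreated cells grown alongside rather than cells given a solvent, and 48 h was the single time measured. The design asks which transcripts differ after exposure to the higher dose. Rows of the table were read as members where they carried an Ensembl gene identifier, which 20463 of 22605 did, and 13968 of these genes had enough counts to be tested.

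Several transcriptional programs bear on what follows. Genes of mitosis are expressed from late S phase to cell division and many carry a cell cycle homology region near their start, through which they are held silent in resting cells. Interferon-stimulated genes are switched on when type I or type III interferon reaches a receptor on the same or a neighbouring cell, and many carry an interferon response element. Unfolded proteins in the endoplasmic reticulum, amino acid shortage, electrophiles and heat each raise a set of protective genes of their own, through the factors ATF6 and XBP1, ATF4, NRF2 and HSF1.

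The 3 libraries at 200 µM were not alike. Mitochondrially encoded mRNAs took 1.85% of all counts in replicate 1, 1.81% in replicate 2 and 4.69% in replicate 3, against 2.09% to 2.29% in the control libraries (the Wilson 95% interval of the highest, which covers counting error only, is 4.68% to 4.70%). Of 10848 genes with a mean of at least 5 CPM (counts per 1000000 of the scaled library) at 200 µM, 196 were more than 1 log2 unit higher and 392 more than 1 log2 unit lower in replicate 3 than in the mean of replicates 1 and 2, whereas 71 differed by that much between replicates 1 and 2. Chi-square per degree of freedom between pairs of libraries was 10.1 to 12.7 in control, 23.5 between replicates 1 and 2 at 200 µM, and 102 and 138 for their pairs with replicate 3. Transcripts rich in GC also differed: with genes in 8 groups by GC content, the log2 gap between the richest and the poorest group, relative to the control mean, was 0.43, 0.89 and -0.27 in the 3 libraries at 200 µM. What set replicate 3 apart was not tested. Its values are given singly below, and counts of genes are repeated without it. Total counts were 27348621 to 28468350 at 200 µM and 29658753 to 30063195 in control.

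Markers of the melanocyte lineage were present, without most of its pigment genes. SOX10, the factor that specifies the melanocyte lineage, stood at 339, 323 and 361 CPM in control replicates 1 to 3, and ERBB3 at 209.9, 214 and 217 CPM, while the pigment genes PMEL, MLANA and TYRP1 were each under 2 CPM in every library of both groups. The 7 leukocyte markers summed to 21.4 to 24.9 CPM in control and 58.6 to 83.9 CPM at 200 µM, most of it CD68, a lysosomal gene of many cell types (85.8% of its exons overlap another transcript), while CD3E had 0 counts. The 8 fibroblast and endothelial markers summed to 19.2 to 22.7 CPM in control and 15.2 to 18.6 CPM at 200 µM. The 6 epithelial markers summed to 232.0 to 240.4 CPM in control and 295.5 to 391 CPM at 200 µM, nearly all of it the keratin genes KRT8 and KRT18, while KRT5 had 0 counts. EPCAM, CDH1, CDH5 and PTPRC were too low to test. The part of these markers in the results below was not tested.

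At 200 µM, 2760 genes (19.8% of those tested) were higher and 2451 (17.5%) lower than in control at an adjusted p under 0.05, with 751 (5.38%) and 552 (3.95%) of these changed by at least 1 log2 unit. A gene is called here when it passes that threshold, and log2 fold changes are 200 µM against control, given as estimate ± standard error from the edgeR model. In 5197 of the 5211 called genes all 3 libraries at 200 µM lay on the same side of the control mean, and in 71 the 2 groups overlapped. Both follow largely from the threshold, which selects genes whose groups are apart. Over all 13968 genes tested, the libraries of the 2 groups did not overlap in 24.4% on the higher and 24.5% on the lower side. Groups that are apart in a single gene below are to be read against these shares. Without replicate 3 at 200 µM, 3947 genes (27.9%) were higher and 3667 (25.9%) lower. Of the 5211 genes, 5094 were called in the same direction without it and 0 in the opposite one. The median log2 fold change over all tested genes was 0.0025, so that list medians below can be read against 0. Since these are bulk samples, fewer cells in a state and less RNA per cell cannot be told apart in any of the results. The plot of list shares shows that mitosis, replication and repair genes stood furthest to the lower side, and immediate early, YAP, interferon and stress genes to the higher side.

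**Figure D1:**
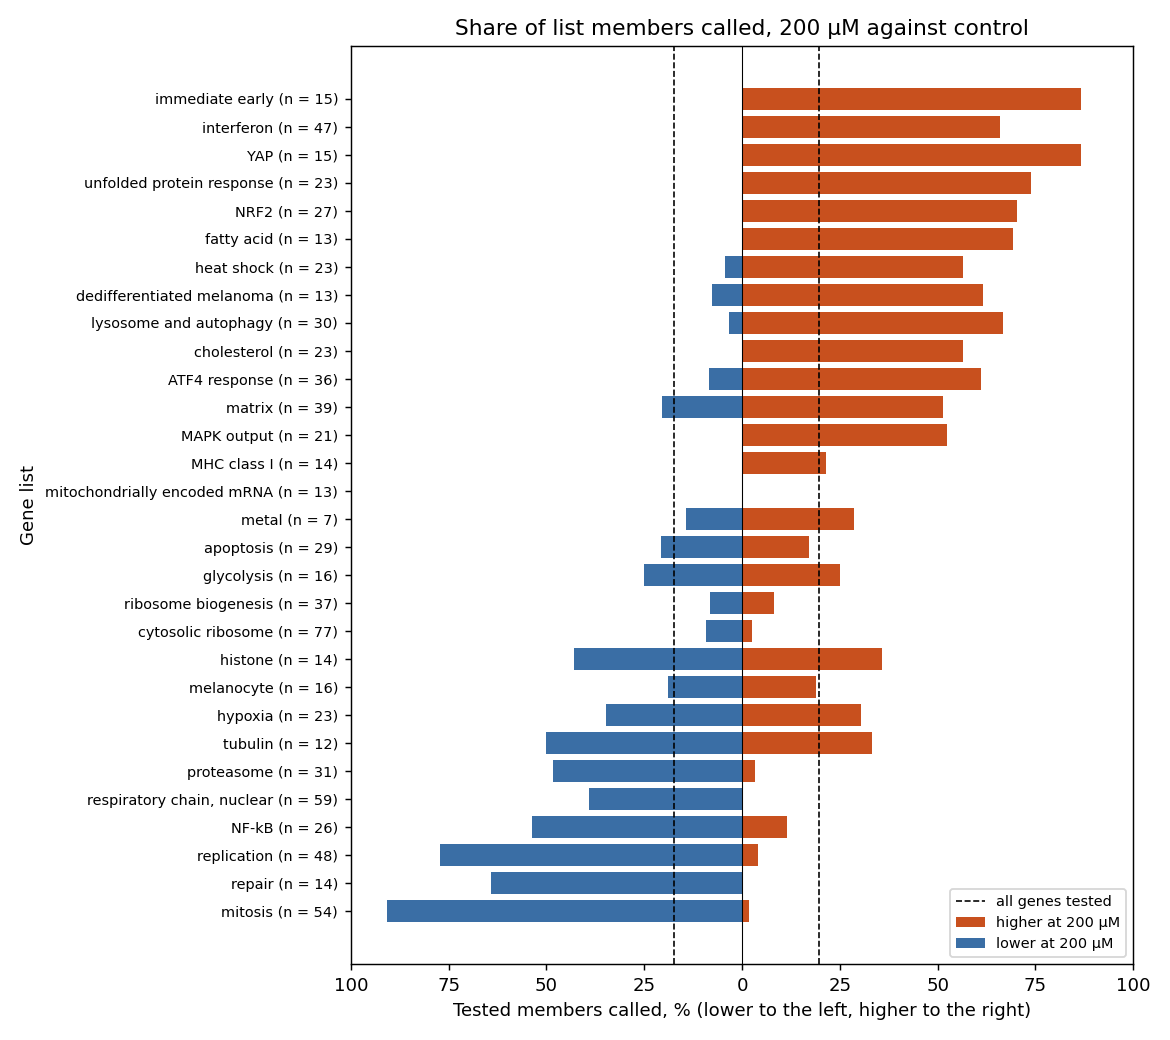
Share of the tested members of each gene list that were called lower (blue, to the left) or higher (orange, to the right) at 200 µM than in control, with the lists shown, each of at least 7 tested members, ordered by their median log2 fold change and the number of tested members in brackets. Dashed lines mark the shares over all 13968 genes tested, 17.5% lower and 19.8% higher. The mitosis list reached 90.7% lower and the immediate early and YAP lists 86.7% higher.

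Genes that carry cells through mitosis were lower at 200 µM. Of 54 members tested, 49 were lower and 1 was higher (17.5% and 19.8% over all genes), with a median log2 fold change of -1.11. The median difference from control in the single libraries was -1.21, -1.29 and -0.87 on the log2(CPM + 0.5) scale in replicates 1 to 3, so replicate 3 had the smallest drop. Without replicate 3, 52 members were lower and 1 was higher.

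CDK1 (ENSG00000170312, chromosome 10, 60778331 to 60794852, on GRCh38 as all positions here) encodes the kinase that drives entry into mitosis, and it went from 327, 363 and 325 CPM in control replicates 1 to 3 to 104, 89 and 92 CPM at 200 µM. Its cyclin partner CCNB1 (ENSG00000134057, chromosome 5, 69167010 to 69178245) went from 372, 381 and 368 CPM to 112, 119.9 and 114 CPM. In both genes every treated library lay under every control library, with little spread, and the changes were 3.57-fold and 3.24-fold lower, with a log2 fold change of -1.83 ± 0.092 (adjusted p = 2.6e-06) and of -1.70 ± 0.069 (adjusted p = 1.1e-06). KIF2C, a kinesin that depolymerises microtubules at centromeres, went from 166, 163 and 164 CPM to 58.9, 65.2 and 58.7 CPM, 2.69-fold lower (adjusted p = 2.4e-06). UBE2C, the ubiquitin-conjugating enzyme of the anaphase-promoting complex, went from 175, 182 and 179.6 CPM to 65.3, 70.2 and 68.3 CPM, 2.63-fold lower (adjusted p = 2.3e-06). None of these 4 genes set replicate 3 apart from the other treated libraries.

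By role, all 9 kinesin motors fell, with a median of -1.35, led by CENPE (-2.10 ± 0.36), the motor that carries chromosomes to the spindle equator. All 9 spindle and cytokinesis proteins and all 6 members of the anaphase-promoting complex and separase group fell. Unlike the list as a whole, the anaphase-promoting complex and separase group fell most in replicate 3 (library medians -0.72, -0.60 and -1.29). Among mitotic kinases 7 of 8 fell, PLK1 by 1.49 ± 0.10 (12.5% of its exons overlap AC008870.3), and among centromere and kinetochore genes 7 of 9, with the centromeric histone CENPA at -1.78 ± 0.21. The 1 member that rose was CDC25B, a phosphatase that starts CDK1 activation, at 90.8, 87.2 and 94.7 CPM in control and 116, 131 and 108 CPM at 200 µM (0.38 ± 0.092, adjusted p = 0.011). TOP2A, the topoisomerase that untangles sister chromatids, was at -1.50 ± 0.13.

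MKI67, which encodes the proliferation antigen Ki-67, was not called in the 9-library model and was the 1 member of the list in which replicate 3 stood on the other side of the controls from replicates 1 and 2. It was at 236, 241 and 239 CPM in control, at 139.5 and 147 CPM in replicates 1 and 2 at 200 µM, and at 281 CPM in replicate 3. Replicates 1 and 2 were below and replicate 3 above every control library, and the fold change of -0.34 ± 0.23 (adjusted p = 0.28) became -0.72 ± 0.057 (adjusted p = 3.4e-06) without replicate 3. MASTL and SGO1, which were not called either, passed the threshold without replicate 3 (-0.59 ± 0.060 and -0.93 ± 0.075).

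**Figure D2:**
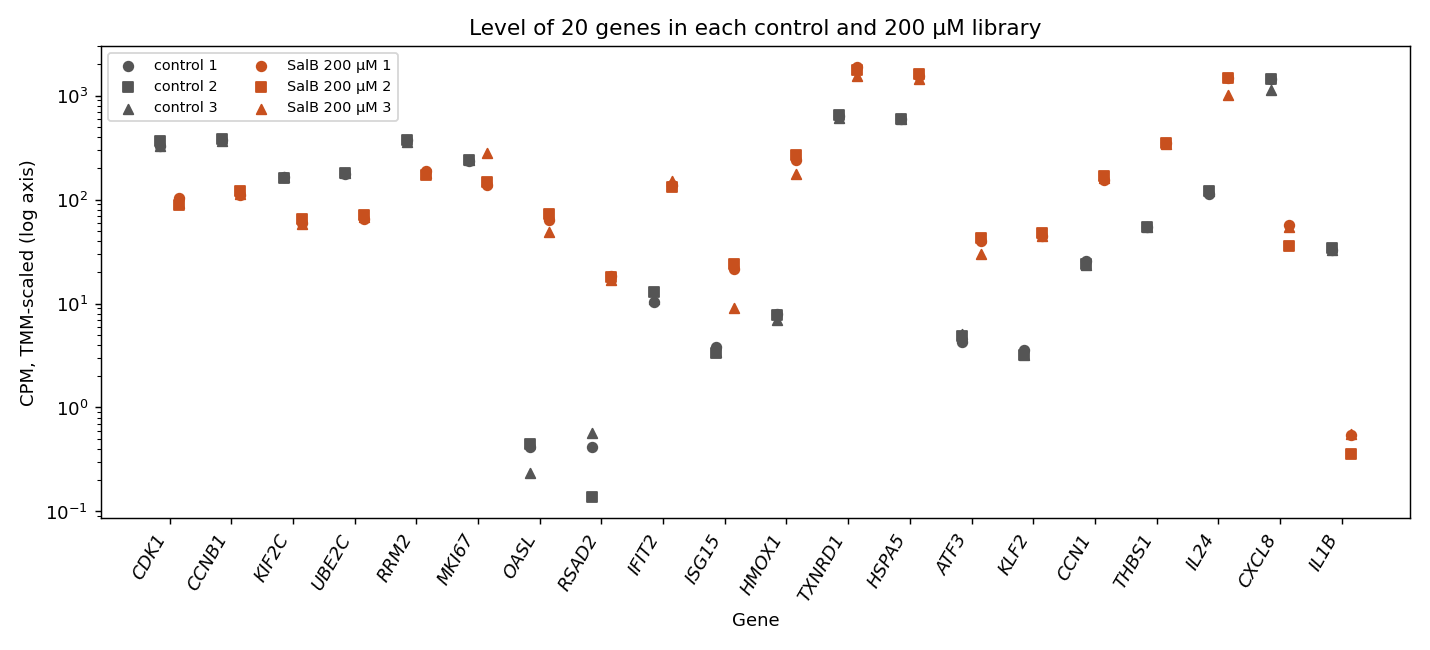
Level of 20 genes in CPM on a log axis, each gene with its 3 control libraries (grey) and its 3 libraries at 200 µM (orange), and with circle, square and triangle for replicates 1, 2 and 3. The groups are apart in 19 genes, and in MKI67 replicate 3 at 200 µM lies above the control libraries while replicates 1 and 2 lie below them. Over all genes tested the groups are apart in 24.4% on the higher and 24.5% on the lower side.

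The promoters of mitosis genes are shown here because the list moved as a group. They hold the 250 bases before the start site (RefSeq, GRCh38.p14, plus strand, 5′ to 3′) of the 3 called members with the smallest p that have the letters TTTGAA, the core of the cell cycle homology region, on either strand. Capitals mark those letters. CDK1 lies at chr10:60778081-60778330, PLK1 at chr16:23678639-23678888 and CCNB2, another mitotic B-type cyclin, at chr15:59104896-59105145.

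CDK1: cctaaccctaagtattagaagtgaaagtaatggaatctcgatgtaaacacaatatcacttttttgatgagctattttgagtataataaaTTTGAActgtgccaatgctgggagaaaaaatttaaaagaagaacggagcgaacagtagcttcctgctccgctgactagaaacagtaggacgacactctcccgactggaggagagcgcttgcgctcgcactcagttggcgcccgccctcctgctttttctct
PLK1: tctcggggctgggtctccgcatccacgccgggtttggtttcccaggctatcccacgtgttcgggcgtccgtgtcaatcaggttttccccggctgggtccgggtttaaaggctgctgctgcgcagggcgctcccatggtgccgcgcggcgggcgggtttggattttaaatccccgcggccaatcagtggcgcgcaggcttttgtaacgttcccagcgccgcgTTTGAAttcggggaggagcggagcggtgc
CCNB2: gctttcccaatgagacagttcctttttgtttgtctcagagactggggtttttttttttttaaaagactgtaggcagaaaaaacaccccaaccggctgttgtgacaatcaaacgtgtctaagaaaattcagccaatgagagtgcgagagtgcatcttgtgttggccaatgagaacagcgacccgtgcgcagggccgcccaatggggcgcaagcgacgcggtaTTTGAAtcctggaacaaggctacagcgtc

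In PLK1 and in CCNB2 the match begins 29 bases before the start and in CDK1 161 bases before it. The search took no mismatch and both strands of the 250 bases before the start. TTTGAA was found in 26 of the 48 mitosis promoters in the table (54.2%) and in 8.68% of 11154 promoters of genes tested, and the CCAAT box (CCAAT) in 36 of 48 (75%) against 35.3%. Of 41 replication gene promoters, 15 (36.6%) held an E2F site (TTTCCCGC or TTTGGCGC) against 3.08%, and 2 (4.88%) held TTTGAA. Bases after the start were not searched. A match is a run of letters and does not show that it is the element the gene uses, or that a factor was bound in these cells. The plot of motif shares sets each list beside all tested genes.

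**Figure D3:**
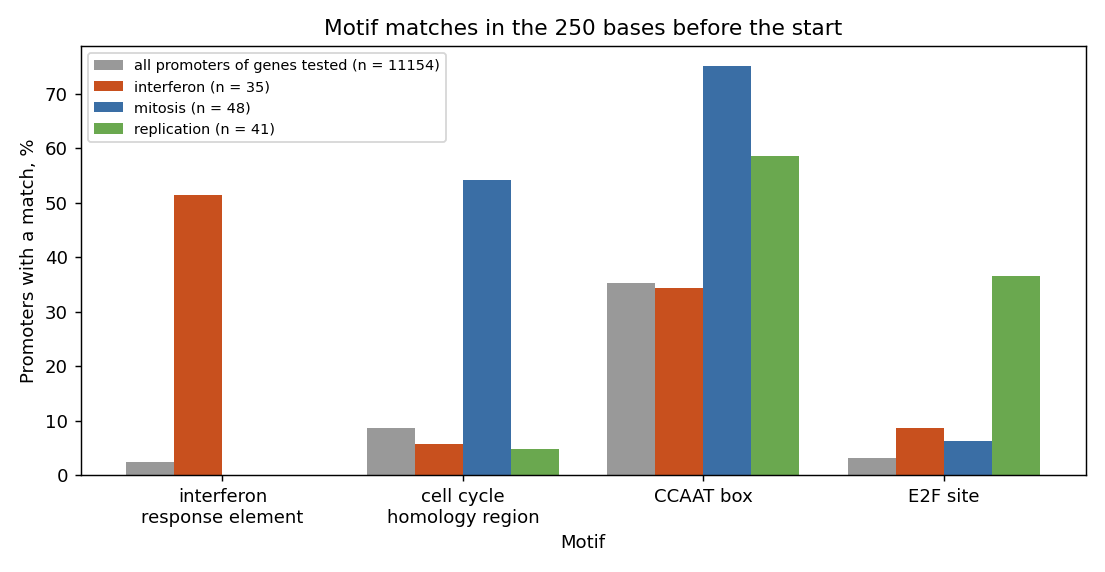
Share of promoters with at least 1 match to each of 4 motifs in the 250 bases before the start site, for all tested genes in the promoter table (grey) and for the interferon, mitosis and replication lists. The interferon response element was found in 51.4% of interferon promoters, the cell cycle homology region in 54.2% of mitosis promoters, and the E2F site in 36.6% of replication promoters.

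Genes that copy DNA were lower too, with a smaller median. Of 48 replication genes 37 were lower and 2 higher, with a median of -0.55 and library medians of -0.51, -0.49 and -0.59. All 5 genes of nucleotide supply fell. RRM2, a subunit of ribonucleotide reductase, went from 378, 376 and 361 CPM to 187, 172 and 180.5 CPM (log2 fold change -1.05 ± 0.066, adjusted p = 7.9e-06), and 20.2% of its exons overlap AC007240.1. GINS2, part of the replicative helicase, went from 87.4, 86.8 and 85.5 CPM to 40.5, 46.9 and 37.6 CPM (log2 fold change -1.05 ± 0.092, adjusted p = 4.6e-05). In both genes the treated libraries lay far below the controls and close together. GMNN, which blocks licensing of origins after S phase, fell by 0.73 ± 0.078, whereas the licensing factor CDC6 was not called (-0.049 ± 0.065).

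The 2 replication genes that rose act before S phase. CCNE1, encoding cyclin E1, went from 20.7, 18.6 and 18.5 CPM to 40.6, 38.7 and 39.2 CPM (log2 fold change 1.04 ± 0.086, adjusted p = 3.7e-05), with the treated libraries close together and above every control. CDC25A, the phosphatase that activates CDK2, rose by 0.54 ± 0.12 (adjusted p = 0.0068), with replicate 3 at 75.8 CPM nearest to the control range of 62.3 to 67.1 CPM. CCND1, encoding cyclin D1, was at 752, 749 and 738 CPM in control and 1030, 834 and 831 CPM at 200 µM and was not called (0.27 ± 0.10, adjusted p = 0.055; 0.33 ± 0.082, adjusted p = 0.0061, without replicate 3), and 10.3% of its exons overlap LTO1.

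Of 14 genes of homologous recombination and the Fanconi pathway, 9 were lower and 0 higher, with a median of -0.58. FANCI, a protein that acts at interstrand crosslinks, fell by 0.90 ± 0.067 and its partner FANCD2 by 0.87 ± 0.088. The count depended on single libraries: 5 members were lower without control replicate 2 and 13 without replicate 3 at 200 µM.

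Histone transcripts split by type. Of 7 replication-dependent histone genes 5 were higher and 0 lower, and of 7 variant or replacement histone genes 6 were lower and 0 higher. H2AZ2, which encodes a variant of histone H2A, went from 319, 317 and 301 CPM to 159, 142 and 136 CPM, and H3-3B, encoding the replacement histone H3.3, from 951, 947 and 944 CPM to 588, 548 and 400.5 CPM. H2AC6, a replication-dependent H2A gene, went from 9.84, 8.37 and 7.80 CPM to 16.3, 15.3 and 17 CPM (log2 fold change 0.90 ± 0.12, adjusted p = 0.00059). The groups were apart in all 3 genes. Replication-dependent histone mRNAs mostly end without a poly(A) tail, and poly-T capture sees only the tailed part, so these values are not their total level.

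Single genes of growth arrest and the DNA damage response went both ways. CDKN1A (ENSG00000124762, chromosome 6, 36676460 to 36687339), encoding the CDK inhibitor p21, went from 138, 136 and 139.9 CPM to 327, 336 and 213 CPM (log2 fold change 1.08 ± 0.15, adjusted p = 0.00065). Replicate 3 rose least, and all 3 treated libraries were above control. GDF15, a secreted stress cytokine, went from 4.50, 5.30 and 5.74 CPM to 45, 41.1 and 23.3 CPM, 7.03-fold higher (adjusted p = 3.9e-05), again with replicate 3 lowest of the treated libraries. BTG2, an antiproliferative gene, rose by 1.35 ± 0.14 and GADD45A, a growth arrest gene, by 1.00 ± 0.10. MDM2, a ubiquitin ligase, was at -0.15 ± 0.14 (adjusted p = 0.46), CCNG1 fell by 0.75 ± 0.14 and the DNA damage recognition gene DDB2 by 0.55 ± 0.13. GDF15 is also a known target of ATF4, and which factor raised it was not tested.

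Interferon-stimulated genes rose together. Of 47 tested, 31 were higher and 0 lower (19.8% and 17.5% over all genes), with a median log2 fold change of 1.18. The library medians were 1.25, 1.11 and 1.24, so replicate 3 lay between the others in this group as a whole, and without it 35 were higher and 0 lower. Many started from almost no expression.

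OASL (ENSG00000135114, chromosome 12, 121019111 to 121039242), which enhances sensing of viral RNA, went from 0.416, 0.448 and 0.236 CPM to 63.5, 73.2 and 48.3 CPM (log2 fold change 7.38 ± 0.27, adjusted p = 5.8e-07). RSAD2 (ENSG00000134321, chromosome 2, 6865806 to 6898239), encoding the antiviral enzyme viperin, went from 0.416, 0.138 and 0.574 CPM to 18.4, 18.1 and 16.7 CPM (log2 fold change 5.54 ± 0.36, adjusted p = 9.8e-06). CCL5, a chemokine that attracts T cells, went from 0.139, 0.069 and 0.068 CPM to 13.3, 12.9 and 19.3 CPM (log2 fold change 7.31 ± 0.44, adjusted p = 6.0e-06). The control libraries were near 0 in these 3 genes, so the folds rest on few control counts, but each treated library was well above every control. CCL5 had enough counts to be tested only through the 200 µM libraries, so its adjusted p adds no separate support. IFIT1 (ENSG00000185745, chromosome 10, 89392546 to 89406486), which binds foreign RNA ends, started from a measured level and went from 9.63, 10.8 and 10.7 CPM to 109, 109 and 157 CPM, 12-fold higher (adjusted p = 2.2e-06). IFIT2, of the same family, went from 10.4, 12.9 and 11.1 CPM to 138, 131 and 151 CPM, 12.2-fold higher (adjusted p = 3.1e-07), and 10.3% of its exons overlap AL353751.1. IFIT3 rose by 2.23 ± 0.12. For IFIT1 and IFIT3 replicate 3 was the highest treated library.

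ISG15, a ubiquitin-like modifier, went from 3.85, 3.34 and 3.41 CPM to 21.5, 24 and 9.10 CPM (log2 fold change 2.36 ± 0.32, adjusted p = 0.00052), and IFI27 from 0.173, 0 and 0.270 CPM to 9.61, 10.9 and 4.53 CPM (log2 fold change 5.77 ± 0.63, adjusted p = 0.00016). Both were above control in every treated library and lowest in replicate 3, against the order seen for IFIT1. IFI27, like CCL5, had enough counts to be tested only through the 200 µM libraries. Of the RNA sensor and kinase group, 4 of 5 rose: RIGI, which detects short double-stranded RNA, by 2.49 ± 0.20, IFIH1, which detects long double-stranded RNA, by 2.19 ± 0.21, and DHX58, their regulator, by 0.98 ± 0.23. ADAR, an RNA editor, was at 0.18 ± 0.062, a call lost when any 1 library other than replicate 3 at 200 µM was left out, with total-count scaling, no filter, the replicate block or GC correction, and with the 6 libraries alone. EIF2AK2, encoding the kinase PKR, was not called (0.18 ± 0.20, adjusted p = 0.53). All 3 chemokines of the list rose, CXCL10 by 2.38 ± 0.24 and CXCL11 by 1.78 ± 0.34.

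Factors that carry the interferon signal were called in part. IRF7 rose by 1.18 ± 0.25, and STAT2, IRF9 and IRF1 were not called (0.23 ± 0.13, 0.86 ± 0.33 and 0.091 ± 0.12), although STAT2 and IRF9 passed without replicate 3. Of the 8 genes of the ISG15 system and the PARP family 4 rose, and of the 26 antiviral effectors 18, so part of the list did not pass the test.

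Transcripts of 2 interferons had 0 counts in control and were present in every library at 200 µM. IFNB1, encoding interferon beta, and IFNL1, encoding interferon lambda 1, were chosen after their values were seen. Both had enough counts to be tested only through the 200 µM libraries, so no p-value is given for them. IFNB1 (ENSG00000171855, chromosome 9, 21077105 to 21077963) had 0 counts in all 3 control libraries and 18, 25 and 25 counts at 200 µM. With control set to the floor of 3 counts per library, it was at least 8.06-fold higher. IFNL1 (ENSG00000182393, chromosome 19, 39296325 to 39298673) had 0 counts in control and 13, 11 and 30 counts, at least 6.45-fold higher with the same floor. Every treated library held both transcripts and no control library held either, at counts low enough for a wide counting error. At 100 µM both had 0 counts in all 3 libraries. IFNE, encoding interferon epsilon, had more counts than either, 55, 66 and 55 in control and 57, 62 and 93 at 200 µM, and was not called (log2 fold change 0.40, adjusted p = 0.36). IFNL3 had 0 counts in control and 3, 0 and 2 at 200 µM, too few to be tested. Of the interferon alpha genes, none had more than 9 counts in a library of the 2 groups, and IFNG had 0 throughout. Among the receptor subunits, IFNLR1 of the lambda receptor had 212, 242 and 256 counts in control and 406, 430 and 237 at 200 µM (log2 fold change 0.70, adjusted p = 0.016). Replicate 3 was the lowest treated library. These are raw counts, not scaled for library size, and replicate 3 had the smallest total, so they do not show whether it overlapped control. IL10RB, the other chain of that receptor, was at 0.73 (adjusted p = 0.0012). IFNAR1 of the type I receptor was not called (-0.17, adjusted p = 0.27) but passed without replicate 3 (adjusted p = 0.0038), and IFNAR2 was at -0.30 (adjusted p = 0.040). Both chains of the interferon gamma receptor were called lower, IFNGR1 at -0.34 (adjusted p = 0.030) and IFNGR2 at -0.52 (adjusted p = 0.0089).

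Promoters of 3 interferon-stimulated genes are shown because the list moved as a group. They are the called members with the smallest p that hold GAAA, any 2 bases and GAAA again, the core of the interferon response element, on either strand (RefSeq, GRCh38.p14, plus strand, 5′ to 3′, 250 bases before the start), with the match in capitals. IFIT1 lies at chr10:89392373-89392622, IFIT3 at chr10:89327747-89327996 and IFITM1, a membrane protein that blocks viral entry, at chr11:313790-314039. The start sites are those of RefSeq and can differ from the gene ends given above.

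IFIT1: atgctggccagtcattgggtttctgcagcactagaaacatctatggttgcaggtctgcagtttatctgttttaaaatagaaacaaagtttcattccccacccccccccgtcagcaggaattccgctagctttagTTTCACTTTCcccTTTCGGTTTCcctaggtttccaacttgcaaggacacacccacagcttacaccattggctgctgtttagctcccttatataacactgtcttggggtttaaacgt
IFIT3: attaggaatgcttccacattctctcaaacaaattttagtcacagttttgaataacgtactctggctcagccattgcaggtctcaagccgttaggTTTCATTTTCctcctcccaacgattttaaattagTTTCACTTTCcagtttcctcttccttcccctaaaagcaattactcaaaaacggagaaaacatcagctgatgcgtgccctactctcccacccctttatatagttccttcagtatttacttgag
IFITM1: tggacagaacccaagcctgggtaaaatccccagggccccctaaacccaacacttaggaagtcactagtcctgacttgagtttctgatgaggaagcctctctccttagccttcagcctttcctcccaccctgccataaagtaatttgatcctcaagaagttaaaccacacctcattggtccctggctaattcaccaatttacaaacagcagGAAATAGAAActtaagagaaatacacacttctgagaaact

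IFIT1 and IFIT3 each hold 2 matches, those nearest the start beginning 103 and 122 bases before it, and IFITM1 holds 1 match at 40 bases. In IFIT1 and IFIT3 the letters are on the minus strand, so the capitals are their reverse complement. The letters were found in 18 of 35 interferon promoters in the table (51.4%) and in 2.48% of 11154 promoters of genes tested, and in 0 of 48 mitosis promoters. They were also found in 6 of 11 promoters of the MHC class I list (54.5%), a list in which 3 of 14 tested genes were called.

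Antigen presentation by MHC class I had few called members. Of 14 genes 3 were higher and 0 lower, close to the 19.8% over all genes, and 1 was higher when any single control or 100 µM library, or replicate 1 or 2 at 200 µM, was left out. HLA-E, a ligand of natural killer cell receptors, was at 12.9, 12.4 and 12.5 CPM in control and 27.5, 27.4 and 24.1 CPM at 200 µM (log2 fold change 1.06 ± 0.092, adjusted p = 4.4e-05), while B2M, the invariant chain, was at -0.10 ± 0.078 (adjusted p = 0.37) and HLA-B at 1.13 ± 0.41 (adjusted p = 0.058). HLA genes have near-identical relatives, so their counts are uncertain.

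Inflammatory cytokines and chemokines driven by NF-kB fell by large factors. Of 11 tested, 9 were lower and 1 higher, with a median log2 fold change of -3.81, and the counts were the same without replicate 3. CXCL8 (ENSG00000169429, chromosome 4, 73740506 to 73743716), the neutrophil attractant interleukin-8, went from 1451, 1449 and 1130 CPM to 56.8, 36.1 and 54.3 CPM, 27.4-fold lower (adjusted p = 1.9e-06). IL1B (ENSG00000125538, chromosome 2, 112829751 to 112836903), encoding interleukin-1 beta, went from 33, 34.3 and 33 CPM to 0.544, 0.356 and 0.556 CPM, 68.6-fold lower (adjusted p = 6.0e-06). Every treated library of both genes lay far under every control. CCL2, which attracts monocytes, went from 94.2, 94.3 and 86 CPM to 6.27, 4.42 and 8.94 CPM (log2 fold change -3.81 ± 0.22, adjusted p = 4.6e-06), and CXCL1, CXCL2 and CXCL3 fell by 3.84 ± 0.16, 3.98 ± 0.29 and 4.07 ± 0.21. TNFRSF9, a TNF receptor family member of activated lymphocytes, fell by 3.87 ± 0.38.

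IL24 (ENSG00000162892, chromosome 1, 206897443 to 206904139), a secreted relative of interleukin-10, was the exception and rose from 114, 119.8 and 120 CPM to 1479, 1480 and 1012 CPM, 11.2-fold higher (adjusted p = 1.2e-06). Replicate 3 was the lowest treated library and still far above control. IL6 was at 0.277, 0.517 and 0.473 CPM in control and 0.580, 0.712 and 1.87 CPM at 200 µM and was not called. Beyond the cytokines the list was mixed: NFKB1, a subunit, fell by 0.67 ± 0.067, the inhibitor NFKBIA by 0.69 ± 0.086 and the survival gene BIRC3 by 0.60 ± 0.17 (a call lost without control replicate 1 or 2 and with the 6 libraries alone), while the adaptor TRAF1 rose from 85.1, 79.7 and 92.9 CPM to 151, 173 and 133 CPM (log2 fold change 0.83 ± 0.11, adjusted p = 0.00041) and BCL3, a nuclear cofactor, by 0.71 ± 0.14 (a call lost after GC correction). In all, 14 of 26 members were lower and 3 higher, and 14 and 5 without replicate 3.

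Chaperones of the endoplasmic reticulum rose. Of 23 genes of the unfolded protein response 17 were higher and 0 lower (median 0.80; library medians 0.83, 0.83 and 0.72). HSPA5 (ENSG00000044574, chromosome 9, 125234853 to 125241330), the chaperone BiP, went from 601, 599.7 and 593 CPM to 1527, 1625 and 1439 CPM, 2.56-fold higher (adjusted p = 2.2e-06). CRELD2, a secreted folding factor, went from 28, 26.3 and 27.3 CPM to 113, 129 and 94.8 CPM, 4.13-fold higher (adjusted p = 4.8e-06). The treated libraries lie close together for HSPA5, and for CRELD2 replicate 3 is the lowest of them. Among chaperones and folding enzymes 12 of 14 rose, including HSP90B1 (1.20 ± 0.10), HYOU1 (1.29 ± 0.15), calreticulin CALR (0.86 ± 0.076) and the disulfide isomerase PDIA3 (1.03 ± 0.087), although 18.9% of its exons overlap ELL3. Of the sensors, ERN1, which encodes IRE1, rose by 0.91 ± 0.12, and the total transcript of XBP1 was not called (0.031 ± 0.067).

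Among genes of the integrated stress response, those of the factor and feedback group rose, 10 of 12 higher and 0 lower. Activity of the response itself was not tested. ATF3, a stress-induced repressor, went from 4.26, 4.82 and 5.06 CPM to 39.8, 42.8 and 29.6 CPM (log2 fold change 2.99 ± 0.16, adjusted p = 3.3e-06). PPP1R15A, encoding GADD34, which restores translation, went from 64.4, 63.3 and 66.2 CPM to 228, 237 and 243 CPM (log2 fold change 1.87 ± 0.083, adjusted p = 1.5e-06). Both were apart from control in every library, ATF3 with replicate 3 lowest. DDIT3, encoding the factor CHOP, went from 33.9, 34.7 and 35.7 CPM to 128, 133 and 95 CPM (log2 fold change 1.77 ± 0.12, adjusted p = 1.4e-05), though 39.6% of its exons overlap MARS. NUPR1, a stress-induced chromatin protein, rose by 3.12 ± 0.23. The transcript of ATF4, which is controlled mainly in translation, was not called (-0.11 ± 0.075, adjusted p = 0.27).

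Amino acid genes were split. Of 10 synthesis genes 3 rose and 3 fell, the latter being PSAT1 (-0.58 ± 0.11) and PSPH (-0.50 ± 0.10) of serine synthesis and ALDH18A1 (-0.49 ± 0.12) of proline synthesis. Transporters rose in 4 of 6 cases, SLC7A5 by 1.18 ± 0.14 and its partner SLC3A2 by 0.97 ± 0.27 (a call lost without any 1 control replicate, without replicate 1 or 2 at 200 µM, or with the 6 libraries alone), and tRNA synthetases in 5 of 8. Over the whole list 22 of 36 were higher and 3 lower, and 27 and 4 without replicate 3. The library medians of the synthesis genes were 0.23, 0.34 and -0.35, with replicate 3 below control.

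NRF2 targets, which detoxify electrophiles and restore glutathione and thioredoxin, rose: 19 of 27 were higher and 0 lower (median 0.74; library medians 0.76, 0.88 and 0.48). HMOX1 (ENSG00000100292, chromosome 22, 35380361 to 35394214), heme oxygenase 1, went from 7.90, 7.68 and 6.92 CPM to 243, 267 and 177 CPM, 30.5-fold higher (adjusted p = 7.6e-07). TXNRD1, thioredoxin reductase, went from 632, 651 and 605 CPM to 1866, 1765 and 1543 CPM, 2.74-fold higher (adjusted p = 4.5e-06). OSGIN1 rose by 3.25 ± 0.21 (13.9% of its exons overlap AC009119.2), GCLM of glutathione synthesis by 1.23 ± 0.15 and the glutathione conjugate exporter ABCC3 by 1.59 ± 0.21. In both HMOX1 and TXNRD1 replicate 3 was the lowest treated library and above every control. NQO1, a standard marker of NRF2, was at 1026, 1042 and 1000 CPM in control and 1266, 1311 and 986 CPM at 200 µM and was not called (0.22 ± 0.10, adjusted p = 0.13). Its replicates 1 and 2 were above and replicate 3 below the control libraries, and without replicate 3 it was at 0.35 ± 0.045 (adjusted p = 0.00010), with 17.7% of its exons overlapping AC092115.2.

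FTH1, the ferritin heavy chain, rose from 2261, 2325 and 2365 CPM to 7157, 7997 and 10320 CPM (log2 fold change 1.87 ± 0.13, adjusted p = 1.2e-05), but 62.4% of its exons overlap BEST1, and ferritin genes have many processed copies, so the value is uncertain. AKR1B10 was at 0, 0.310 and 0 CPM in control and 0.870, 12.5 and 0.318 CPM at 200 µM and was not called (5.42 ± 2.24, adjusted p = 0.092), with replicate 2 far above the other treated libraries. TFRC, the transferrin receptor, was not called (-0.16 ± 0.11), and IREB2, an iron sensor, was at -0.35 ± 0.083 and lost its call after GC correction.

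Heat shock genes rose in part, 13 of 23 higher and 1 lower, and 13 and 3 without replicate 3. HSPA1A, inducible HSP70, went from 3.15, 3.10 and 3.88 CPM to 21.6, 25.1 and 30.7 CPM (log2 fold change 2.93 ± 0.16, adjusted p = 3.6e-06), and shares nearly all of its sequence with HSPA1B, so the split between them is uncertain. The small heat shock gene HSPB1 went from 81.4, 72.7 and 84 CPM to 182, 192 and 239 CPM, 2.57-fold higher (adjusted p = 4.0e-05). For both genes replicate 3 was the highest library. The co-chaperones DNAJB1 and BAG3 rose by 1.16 ± 0.092 and 1.12 ± 0.11, and the mitochondrial co-chaperonin HSPE1 fell by 0.60 ± 0.11, with 23.9% of its exons overlapping HSPD1.

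Genes of sterol and fatty acid synthesis were more often higher than lower. Of 23 cholesterol genes 13 were higher and 0 lower (median 0.45), and of 13 fatty acid genes 9 and 0. HMGCS1, which begins the mevalonate pathway, went from 75.6, 82.7 and 78 CPM to 268, 225 and 251 CPM (log2 fold change 1.65 ± 0.092, adjusted p = 4.0e-06), and 15% of its exons overlap AC114947.2. INSIG1, the sterol-sensing brake on SREBP, rose by 1.57 ± 0.10, whereas INSIG2 fell by 1.38 ± 0.16. SCD, which introduces a double bond into fatty acids, went from 273, 277 and 262 CPM to 579, 563 and 544 CPM (log2 fold change 1.05 ± 0.062, adjusted p = 5.5e-06). Treated and control libraries were apart in all of these. PMVK and IDI1 of the mevalonate pathway were not called (-0.50 ± 0.32 and 0.25 ± 0.11).

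Hypoxia genes split, 7 of 23 higher and 8 lower. SLC2A3, the glucose transporter GLUT3, went from 86.1, 90.2 and 83.7 CPM to 321, 318 and 265 CPM (log2 fold change 1.80 ± 0.095, adjusted p = 3.1e-06), and ADM, a vasodilator peptide, from 26.8, 26 and 27 CPM to 89.5, 87.6 and 86.5 CPM (log2 fold change 1.72 ± 0.079, adjusted p = 1.8e-06). On the lower side BNIP3, a mitophagy receptor, went from 445, 449 and 414 CPM to 248, 220 and 270 CPM (log2 fold change -0.83 ± 0.086, adjusted p = 0.00013). Every library followed its group in the 3 genes. The collagen-modifying enzymes PLOD2 and P4HA1 fell by 0.88 ± 0.14 and 0.61 ± 0.084. LDHA, which makes lactate, fell by 0.81 ± 0.10 and PGAM1 of glycolysis by 0.73 ± 0.093. The glycolysis list had 4 of 16 members higher and 4 lower, near the shares over all genes. Without any 1 control replicate, 0 were higher and 2 lower, without replicate 1 or 2 at 200 µM 0 were higher, without replicate 2 at 100 µM there were 2 higher, and without replicate 3 at 200 µM 7 were.

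Immediate early genes and targets of YAP were raised with few exceptions. Of 15 immediate early genes 13 were higher and 0 lower, with a median of 1.19. KLF2 (ENSG00000127528, chromosome 19, 16324817 to 16327874), a zinc finger factor of quiescence, went from 3.60, 3.17 and 3.17 CPM to 44.4, 48 and 44.2 CPM, 13.7-fold higher (adjusted p = 2.6e-07). FOSB, an AP-1 subunit, went from 4.54, 4.06 and 4.79 CPM to 45.9, 46.2 and 51.4 CPM, 10.7-fold higher (adjusted p = 1.3e-06), and KLF4 and JUN rose by 3.15 ± 0.15 and 2.59 ± 0.12. The treated libraries lay close together in both genes given in full. EGR1, a zinc finger factor induced by growth factors, rose by 2.01 ± 0.16 and DUSP1, a MAPK phosphatase, by 1.34 ± 0.12. KLF10 was not called (0.28 ± 0.14), and IER2 was not called either (0.59 ± 0.25, adjusted p = 0.097), but was at 0.89 ± 0.072 (adjusted p = 4.1e-06) without replicate 3.

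YAP targets were higher in 13 of 15 cases and lower in 0, with a median of 1.00. CCN1 (ENSG00000142871, chromosome 1, 85580761 to 85583962), a matricellular protein, went from 25.6, 23.9 and 23.7 CPM to 154, 168 and 161 CPM, 6.60-fold higher (adjusted p = 3.1e-07), and CCN2 from 13.7, 11.5 and 12.2 CPM to 62, 56.8 and 60.8 CPM, 4.79-fold higher (adjusted p = 1.1e-06). Control and treated libraries were far apart and even within groups. LATS2, the kinase that restrains YAP, rose by 1.35 ± 0.088, AMOTL2, another inhibitor, by 1.79 ± 0.094, and the receptor kinase AXL by 1.00 ± 0.067. The partner factor TEAD1 was not called (-0.13 ± 0.12; -0.28 ± 0.072, adjusted p = 0.0079, without replicate 3).

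Readouts of MAPK signalling, which mutant BRAF drives in this line, rose in 11 of 21 cases and fell in 0. The count was 7 without control replicate 1 or 3 or replicate 1 at 200 µM, and 6 without control replicate 2, and without replicate 3 at 200 µM 13 were higher and 3 lower. DUSP5, a nuclear ERK phosphatase, went from 32.2, 31 and 32.5 CPM to 213, 229 and 146 CPM (log2 fold change 2.62 ± 0.16, adjusted p = 6.5e-06), and FOSL1, an AP-1 subunit, from 131, 116 and 134 CPM to 452, 493 and 717 CPM (log2 fold change 2.12 ± 0.16, adjusted p = 2.5e-05). DUSP5 was lowest and FOSL1 highest in replicate 3 among treated libraries, and both were apart from control. MYC rose by 0.91 ± 0.10, whereas the ERK feedback gene DUSP6 was not called (-0.13 ± 0.060). DUSP6 passed the threshold as lower with GC correction (-0.147, adjusted p = 0.041) and with the DESeq2 Wald test (-0.116, adjusted p = 0.031). In these settings 3 and 2 members of the list were lower. BRAF was at 0.24 ± 0.12 (adjusted p = 0.16), and passed the threshold after GC correction and without replicate 2 at 200 µM.

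Matrix and adhesion genes moved both ways, 20 of 39 higher and 8 lower. Proteases, inhibitors and crosslinkers rose in 10 of 12 cases, TIMP2 by 0.94 ± 0.065 and the collagenase-activating MMP14 by 0.80 ± 0.13. THBS1 (ENSG00000137801, chromosome 15, 39581079 to 39599466), thrombospondin 1, went from 54.5, 54.7 and 53.9 CPM to 347, 352 and 344 CPM, 6.39-fold higher (adjusted p = 1.2e-07). FN1, fibronectin, went from 195, 209 and 213 CPM to 665, 723 and 909 CPM, 3.72-fold higher (adjusted p = 7.1e-06). THBS1 was even across treated libraries, and FN1 was highest in replicate 3. Integrin chains split, with ITGA2 at 1.52 ± 0.13 and ITGA3 at 1.21 ± 0.11 on the higher side, and ITGAV at -0.76 ± 0.14 and ITGB3 at -0.87 ± 0.081 on the lower side, with 51.6% of ITGB3 exons overlapping AC068234.1. THBS2 and the fibrillar collagen gene COL5A2 fell by 1.91 ± 0.19 and 0.74 ± 0.064. MMP9, gelatinase B, went from 6.83, 6.72 and 7.26 CPM to 0.435, 0.392 and 0.913 CPM, a fall by 3.58 ± 0.35, with 18.4% of its exons overlapping SLC12A5-AS1.

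Melanocyte lineage genes did not move as a list, with 3 of 16 higher and 3 lower, and 4 and 5 without replicate 3. SOX10 was at 411, 453 and 552 CPM at 200 µM against the control values above (log2 fold change 0.47 ± 0.11, adjusted p = 0.0075), with the call lost after GC correction. MITF, the master regulator of pigment cells, went from 27.3, 31.5 and 27 CPM to 20.8, 15.4 and 23.6 CPM (log2 fold change -0.52 ± 0.15, adjusted p = 0.026), and its call was lost without any 1 control replicate, without replicate 1 at 200 µM or with the 6 libraries alone. S100B, a calcium-binding marker of melanoma, went from 43.7, 39.5 and 41.6 CPM to 16.7, 19.2 and 21.3 CPM (log2 fold change -1.12 ± 0.10, adjusted p = 5.7e-05), with the groups clearly apart.

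Receptors that mark dedifferentiated melanoma rose in 5 of 5 cases. NGFR (ENSG00000064300, chromosome 17, 49495293 to 49515017), the neurotrophin receptor of neural crest-like melanoma cells, went from 21.4, 20.8 and 24.4 CPM to 141, 158 and 113 CPM (log2 fold change 2.63 ± 0.13, adjusted p = 2.6e-06), and 27.1% of its exons overlap AC015656.1. AXL, with 79.5, 81 and 82.2 CPM in control, was at 166, 166 and 154 CPM (log2 fold change 1.00 ± 0.067, adjusted p = 1.1e-05). PDGFRB, EGFR and MET rose by 0.89 ± 0.17, 0.54 ± 0.15 and 0.42 ± 0.12, with the call lost without control replicate 1 or 2 for EGFR and 1 or 3 for MET, and with the 6 libraries alone for both. In NGFR and AXL every treated library was above every control. WNT5A, a noncanonical ligand, fell by 0.88 ± 0.22, and the factor TWIST1 was not called (-0.34 ± 0.13; -0.40 ± 0.12, adjusted p = 0.018, without replicate 3). In the whole list 8 of 13 were higher and 1 lower, 4 higher without control replicate 1, and 9 and 4 without replicate 3 at 200 µM.

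Apoptosis regulators showed no common direction, with 5 of 29 higher and 6 lower, shares near those over all genes. Without replicate 3, 11 were higher and 6 lower. Of the death-promoting BCL2 family BBC3, encoding PUMA, went from 8.32, 6.89 and 6.25 CPM to 18.4, 24.1 and 9.57 CPM (log2 fold change 1.28 ± 0.28, adjusted p = 0.0072), and BCL2L11, encoding BIM, rose by 0.60 ± 0.13, with 10.9% of its exons overlapping MIR4435-2HG. The protective BCL2L1 rose by 0.64 ± 0.16, and MCL1 and BCL2 were not called (-0.064 ± 0.069 and 0.28 ± 0.16). Replicate 3 was the lowest treated library in BBC3 and above control. BAX, the pore former, was at 80.8, 77.2 and 86.1 CPM in control and 98.1, 108 and 55.7 CPM at 200 µM, with replicate 3 below and the others above every control library, and was not called (0.10 ± 0.20, adjusted p = 0.73; 0.36 ± 0.072, adjusted p = 0.0019, without replicate 3). Among the machinery that executes death, APAF1, CASP8 and CYCS fell by 0.51 ± 0.086, 0.49 ± 0.10 and 0.49 ± 0.12, while the death receptor gene TNFRSF10A rose by 1.02 ± 0.13 (16.6% of its exons overlap AC100861.1).

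Lysosome and autophagy genes rose, 20 of 30 higher and 1 lower (median 0.49; library medians 0.47, 0.54 and 0.41). SQSTM1, the autophagy receptor p62 and an NRF2 target as well, went from 422, 348 and 431 CPM to 1596, 1759 and 1266 CPM (log2 fold change 1.94 ± 0.15, adjusted p = 2.6e-05), and 22% of its exons overlap MRNIP. NPC1, which exports cholesterol from lysosomes, went from 32.8, 32.1 and 34.3 CPM to 81.3, 85.5 and 68 CPM (log2 fold change 1.24 ± 0.10, adjusted p = 3.2e-05). Both were above control in all treated libraries, and lowest in replicate 3. TFEB, the master regulator of lysosome genes, rose by 1.45 ± 0.29 from a control level of under 2 CPM, and MAP1LC3B, which encodes LC3, by 0.66 ± 0.091. NPC2, the soluble partner of NPC1, fell by 0.38 ± 0.075.

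Proteasome subunit genes were lower in 15 of 31 cases and higher in 1 (median -0.28), but 7 were lower without control replicate 1 and 9 without control replicate 2. The changes were small, such as -0.49 ± 0.063 for PSMA3 and -0.55 ± 0.088 for PSMC6, both of which lost the call after GC correction. PSMB3 stood apart at 32.6, 70.1 and 61.1 CPM in control and 0.254, 0.534 and 0.199 CPM at 200 µM (log2 fold change -7.34 ± 0.92, adjusted p = 0.00039), with 3.08, 3.18 and 18.1 CPM in the 3 libraries at 100 µM. The unequal values within the control and the 100 µM groups leave this value uncertain.

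The 13 mitochondrially encoded mRNAs are where the 3 treated libraries went apart most. Replicate 3 was above every control library for 13 of 13, and replicates 1 and 2 were both below every control library for 10 of 13. MT-CO1, a subunit of cytochrome oxidase, stood at 5520, 5460 and 5403 CPM in control and 5426, 5281 and 14130 CPM at 200 µM. MT-CYB, cytochrome b of complex III, stood at 2234, 1994 and 2083 CPM in control and 1286, 1338 and 3352 CPM at 200 µM. MT-ND3 of complex I stood at 410.3, 309 and 360.5 CPM and 189, 183 and 522 CPM. In all 3 the value in replicate 3 was over that in replicates 1 and 2 by more than the whole control range. The list had a median of 0.22 with 0 of 13 called by edgeR in either direction, 1 of them at an unadjusted p under 0.05, and 1 higher by DESeq2. Without replicate 3 the median was -0.51 with 7 lower and 1 higher, among them MT-CYB at -0.67 ± 0.073 (adjusted p = 3.2e-05) and MT-ND3 at -0.94 ± 0.10 (adjusted p = 4.2e-05). The direction of mitochondrial transcripts at 200 µM therefore rests on which libraries are used.

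**Figure D4:**
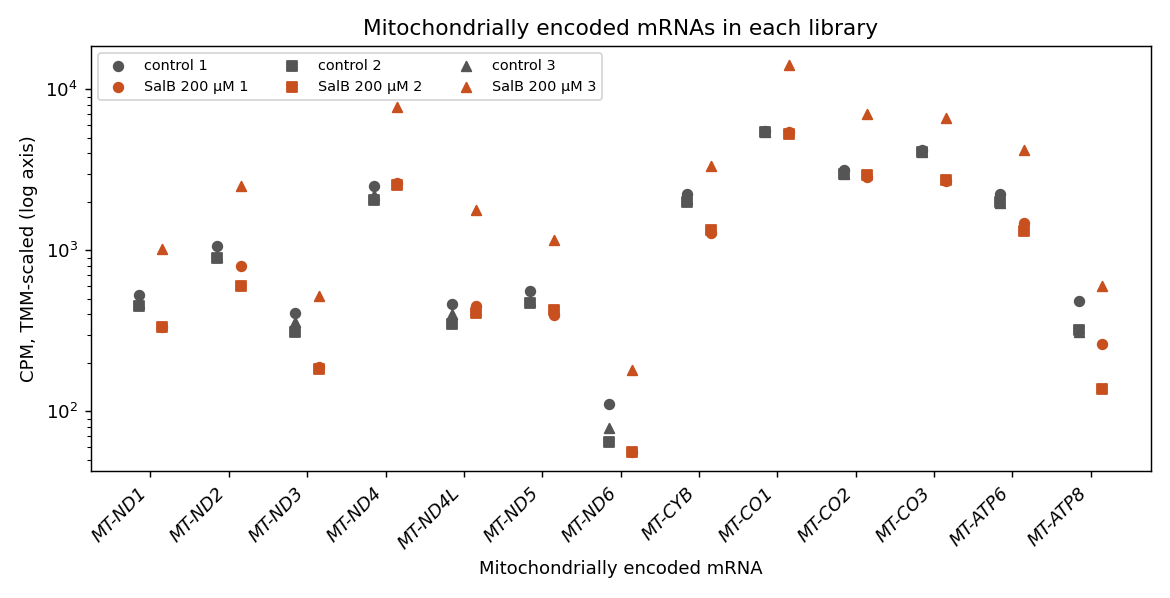
Level of the 13 mitochondrially encoded mRNAs in CPM on a log axis in the control libraries (grey) and at 200 µM (orange), with circle, square and triangle for replicates 1, 2 and 3. The orange triangle, replicate 3, lies above all other libraries for 13 of 13 transcripts.

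Nuclear genes of the respiratory chain were lower in 23 of 59 cases and higher in 0 (median -0.30), and their library medians of -0.34, -0.20 and -0.54 put all 3 treated libraries below control. Complex I held 14 of the 23. NDUFB6 of complex I went from 116, 117 and 113 CPM to 73.3, 76.3 and 76.6 CPM (log2 fold change -0.61 ± 0.075, adjusted p = 0.00030), and the 2 groups of libraries did not overlap. Leaving out control replicate 1 gave 12, control replicate 3 gave 14 and replicate 1 at 200 µM gave 15, and there were 31 without replicate 3.

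Protein synthesis genes stayed near the background of all genes or under it. Of 77 cytosolic ribosomal protein genes 2 were higher and 7 lower (median -0.042), and of 37 ribosome biogenesis genes 3 and 3 (median 0.050). Both counts moved with single libraries: without replicate 3 at 200 µM, 10 ribosomal protein genes were higher and 13 lower, without replicate 2 there were 12 lower, and without any single control or 100 µM library 2 or 3 were lower. Ribosomal protein genes have near-identical processed copies, so single members are uncertain. Of 12 tubulin-related genes 6 were lower and 4 higher, and 1 was higher without control replicate 2. STMN1, which sequesters tubulin, went from 677, 659 and 660.1 CPM to 391, 398 and 418 CPM (log2 fold change -0.73 ± 0.061, adjusted p = 3.9e-05). The treated libraries of STMN1 lay below every control and close together. As reference genes GAPDH was not called (0.12 ± 0.076, adjusted p = 0.24) and ACTB was at 0.41 ± 0.11 (adjusted p = 0.015), a call lost after GC correction and without control replicate 1 or 2.

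Among markers of other cell types, 2 of the 4 tested leukocyte markers were higher and 1 lower, and of 6 fibroblast and endothelial markers 2 were higher and 1 lower. CD14, a monocyte marker, was at 0.173, 0.172 and 0.270 CPM in control and 1.30, 1.21 and 0.477 CPM at 200 µM, and PECAM1, an endothelial marker, at 0.728, 0.930 and 0.709 CPM in control and 2.87, 2.60 and 2.94 CPM at 200 µM. Replicate 3 was the lowest treated library in CD14, and the groups did not overlap in either gene. CD14 had enough counts to be tested only through the 200 µM libraries, so its call and its lack of overlap add no separate support. CD68, a lysosomal protein of macrophages, was at 18.8, 17.6 and 21.2 CPM in control and 55.3, 58.2 and 82.8 CPM at 200 µM, with 85.8% of its exons overlapping AC016876.2. LYZ, the lysozyme of myeloid cells, went from 4.05, 3.69 and 3.58 CPM to 2.43, 2.14 and 1.27 CPM (log2 fold change -0.95 ± 0.26, adjusted p = 0.017), with 34% of its exons overlapping AC020656.1. PDGFRA, a growth factor receptor of fibroblasts, went from 9.84, 11.9 and 10.0 CPM to 6.09, 5.02 and 6.20 CPM (log2 fold change -0.88 ± 0.13, adjusted p = 0.00076), with 15.8% of its exons overlapping AC058822.1. In both, all treated libraries were below control. Of 4 tested genes of the aryl hydrocarbon receptor list, 2 were higher, 0 lower and 2 not called (19.8% higher and 17.5% lower over all genes). The 2 were CYP1A1, a xenobiotic oxidase (1.41 ± 0.25), and TIPARP, a feedback repressor of the receptor (1.47 ± 0.11). CYP1A1 was low throughout, at 1.25, 0.792 and 1.25 CPM in control and 3.26, 3.38 and 2.11 CPM at 200 µM. The zinc exporter SLC30A1 rose by 1.58 ± 0.13, and metallothionein MT1X went from 9.67, 8.06 and 8.44 CPM to 13.3, 13.9 and 32.2 CPM (log2 fold change 1.18 ± 0.32, adjusted p = 0.019; 0.65 ± 0.15 without replicate 3), a call lost without control replicate 2 or 3 or with the replicate block and GC correction together, with replicate 3 at 200 µM far above the other libraries.

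The 3 treated libraries are set side by side in the plot of list medians. Among the lists plotted, replicates 1 and 2 were furthest apart in the YAP list, at 0.78 and 1.03. Replicate 3 was below both of them in glycolysis (0.013, 0.12 and -0.40 in replicates 1 to 3), immediate early (1.33, 1.33 and 0.96) and NRF2 genes. It was above both in heat shock (0.43, 0.43 and 0.72), dedifferentiated melanoma (0.31, 0.30 and 0.67) and repair genes (-0.58, -0.78 and -0.30). Counts of higher and lower members without replicate 3, for the lists not yet given so, were 3 and 38 for replication, 19 and 0 for unfolded protein genes, 16 and 0 for cholesterol, 11 and 1 for fatty acid and 8 and 10 for hypoxia genes. They were 14 and 0 for immediate early genes, 13 and 1 for YAP targets, 22 and 8 for matrix, 22 and 1 for lysosome, 4 and 18 for proteasome, 8 and 7 for ribosome biogenesis, 5 and 6 for histone, 4 and 6 for tubulin and 4 and 0 for MHC class I genes.

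**Figure D5:**
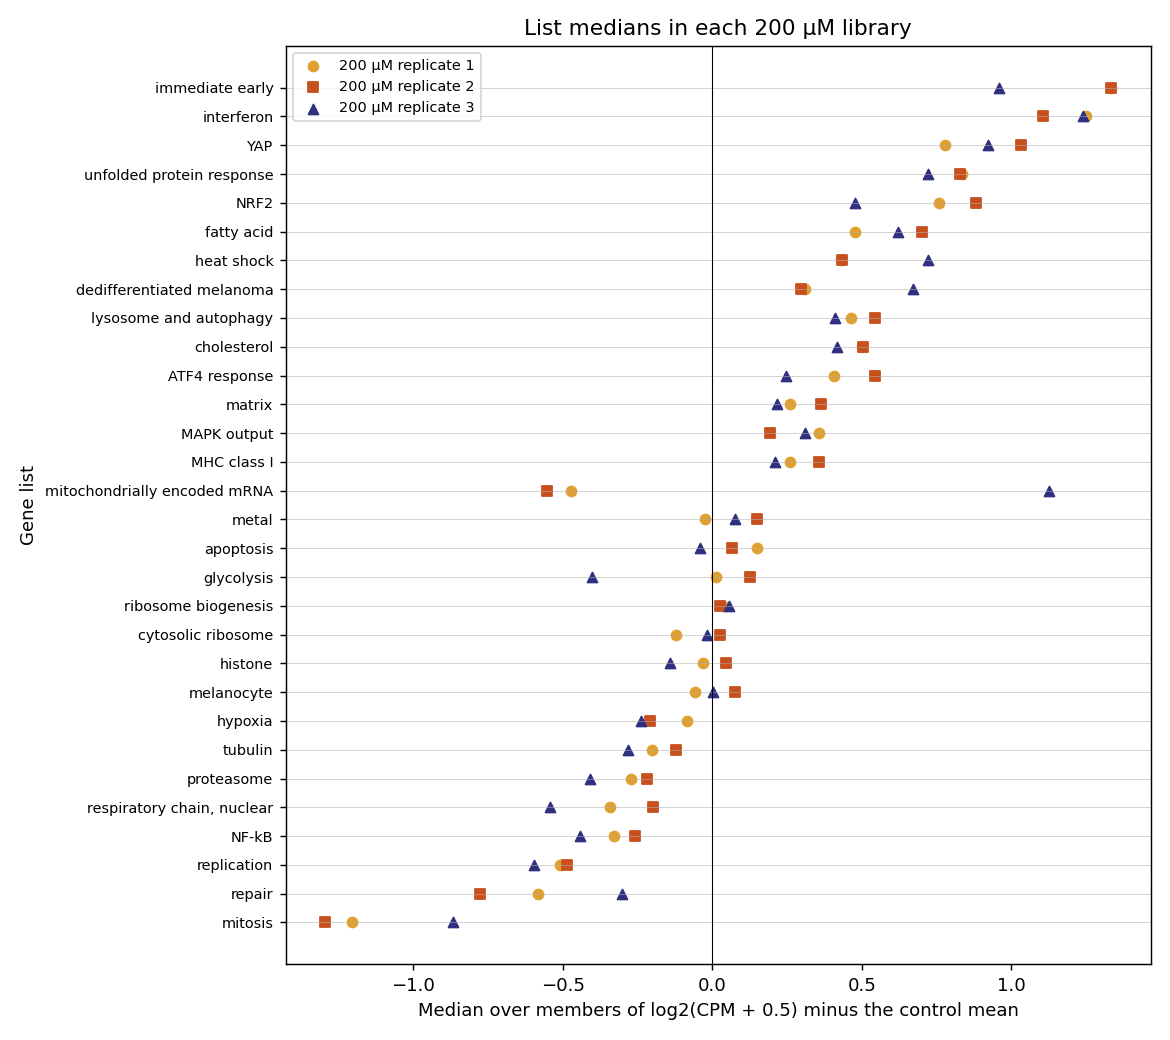
Median over the tested members of each list of log2(CPM + 0.5) minus the mean of the 3 control libraries, for replicates 1, 2 and 3 at 200 µM, with lists ordered as in the plot of list shares. Replicate 3 stands alone for the mitochondrially encoded mRNAs (1.12, against -0.47 and -0.55) and lies above them for mitosis and repair genes.

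Genes that differed most between replicate 3 and the other treated libraries were often of uncertain counting. Of the 8 most above their mean and the 8 most below it, 9 share at least 10% of their exons with another gene. The share of all genes with such overlap was not computed. The readthrough models BIVM-ERCC5 and RAB4B-EGLN2 share 100% of their exons. Their values in replicates 1 to 3 were 0, 64.6 and 111 CPM, and 29.7, 0 and 34.1 CPM. In these models replicates 1 and 2 also lay far apart, so replicate 3 did not stand alone. COX5B, a nuclear subunit of cytochrome oxidase without such overlap, was at 65.5, 57.4 and 64.9 CPM in control and 46.6, 53.9 and 5.48 CPM at 200 µM. MRM2, a mitochondrial ribosomal RNA methyltransferase, was at 53.6, 51.6 and 57.1 CPM in control and 33.4, 30.7 and 2.70 CPM at 200 µM. In both genes replicate 3 was far below the other treated libraries, which lay under control as well. Of all genes tested, 30 were under 1 CPM in 1 library and over 10 CPM in another of the same group, and 0 of them were called. Of the genes with the largest changes, BEST1, an ion channel of the eye, showed a like spread, with 3.26, 3.69 and 3.51 CPM in control and 527, 355 and 61.9 CPM at 200 µM (log2 fold change 6.50 ± 1.28, adjusted p = 0.0049), and 14.2% of its exons overlap FTH1. IGFBP5, which binds insulin-like growth factors, fell from 6.83, 5.92 and 6.72 CPM to 0.326, 0.142 and 0.159 CPM (log2 fold change -4.92 ± 0.22, adjusted p = 1.7e-06), and ARC, an activity-induced gene, rose by 3.93 ± 0.23. FAM180A rose by 3.87 ± 0.45 and SYNC by 3.79 ± 0.17, though 48.9% of SYNC exons overlap RBBP4.

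Beside the 100 µM group, which shares the control libraries with this comparison, several of these genes had other values. IL24 was at 6.52, 6.85 and 6.94 CPM at 100 µM (-4.12 against control), HMOX1 at 7.07, 5.22 and 6.45 CPM (-0.26), OASL at 0.514, 0.292 and 0.421 CPM (0.16) and MKI67 at 466, 440.1 and 423 CPM (0.89). In the direct test of 200 µM against 100 µM, with 22.4% of tested genes higher and 21.9% lower, the differences were 7.61 for IL24 (adjusted p = 4.7e-08), 5.19 for HMOX1 (adjusted p = 2.9e-07) and 7.22 for OASL (adjusted p = 2.9e-07). THBS1, at 362, 348 and 354 CPM, was not called between the doses (-0.029, adjusted p = 0.72). By lists, 23 of 27 NRF2 genes, 34 of 47 interferon genes and 0 of 54 mitosis genes were higher at 200 µM than at 100 µM, and 0, 2 and 45 were lower. The fall of NF-kB cytokines and chemokines was present at 100 µM as well. There 11 of 11 were lower than in control (18.2% over all genes), with a median log2 fold change of -4.22. Between the doses 7 of them were higher and 1 lower at 200 µM.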

How the data were processed

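RNA sequencing of poly(A)-captured transcripts was measured in 9 libraries of A375 cells. The authors deposited raw read counts per gene, without normalization. The tools named in the submitters' processing notes are FastQC, featureCounts, HISAT2 and DESeq2, with the build GRCh38. Neither the strand setting nor the annotation release is given in the sources used here. Reads of overlapping or antisense genes can therefore be mixed, and exon overlap of at least 10% in GENCODE v29 is given beside a gene's value.

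The 9 libraries, 3 in each of 3 groups, were fitted together with edgeR 4.0.16 in R 4.3.3 (limma 3.58.1): genes kept by filterByExpr, TMM scaling, a robust quasi-likelihood fit by group, and Benjamini-Hochberg adjustment over all 13968 genes tested. All 9 enter so that the groups share 1 estimate of the spread, with 6 residual degrees of freedom. Standard errors are the log2 fold change divided by the root of the F statistic, and CPM are counts per 1000000 of the TMM-scaled library. Single-library differences use log2(CPM + 0.5). The 2142 rows of assembled transcripts without a gene identifier were left out. The script was tested on simulated data. P-values measure the spread between these libraries, which the series describes as biological replicates.

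Named genes were the 10 largest changes each way among called genes with at least 5 CPM in 1 group and no overlap between groups, up to 4 members of each list in its main direction and 2 in the other by smallest p where at least 25% of the list was called, and 25 landmark genes. Other list members are named as examples of their role, chosen after their values were seen. The members and the 35 gene lists were chosen with earlier results of these data known. Alternatives were another normalization, filter or tool, GC correction, a replicate block, the 6 libraries alone, and leaving out each library. Promoters were read from RefSeq (GRCh38.p14), in which 11154 tested genes had an entry. Some genes, and a list named for one of them, are not reported here.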

Additional observations from a re-analysis of the deposited data

Results flagged for a closer look

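Transcripts that the authors assembled from the reads, and that carry no gene identifier, were outside the comparison. Fitted together with the genes, 1518 of them had enough counts to be tested, and 117 were higher (7.71%) and 148 lower (9.75%) at 200 µM than in control. Over all genes tested, in the main fit without these transcripts, the shares were 19.8% and 17.5%, or 2760 and 2451 genes. In the joint fit 2669 genes were higher and 2312 lower. These transcripts are mentioned because the comparison did not use them. No annotation places them in a gene, so they are given as counts without names.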

How the results depend on the processing

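Of 160 called genes among the 170 chosen by rule, 143 kept direction and call under all 20 alternatives that gave a value, and 35 of the 41 other called members that were checked did so. Leaving out 1 library gave 3719 (without control replicate 1) to 7614 (without replicate 3 at 200 µM) called genes, 2027 to 3947 higher and 1692 to 3667 lower. The replicate block gave 4369 called genes. Deviations from the group mean had r = -0.014, -0.23 and -0.17 between control and 200 µM libraries that share a number. Pairs with unlike numbers reached 0.23 and 0.165. Deviations within a group of 3 sum to 0, so these values cannot show whether a shared number marks a shared culture or preparation. The 6 libraries alone gave 3875, GC correction 6607 and the DESeq2 Wald test 5861. Of the 5211 genes called in the main fit, these 3 settings shared 3851, 4802 and 5186. Leaving out control replicate 1 shared 3671. In each of these settings 0 shared genes had the opposite direction. BAX, not called, turned to -0.039 with GC correction, -0.052 with the replicate block and GC correction, and, on leaving out 1 library, ranged from -0.082 (without replicate 2 at 200 µM) to 0.357 (without replicate 3). Also not called, B2M turned to 0.042 with GC correction and 0.029 with the replicate block and GC correction, and on leaving out 1 library MDM2 ranged from -0.244 (without replicate 3 at 200 µM) to 0.008 (without replicate 2) and EIF2AK2 from -0.115 (without replicate 3) to 0.373 (without replicate 2). The cause was not tested. Depth limits genes near 0, such as IFNB1.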
